A study of Mus musculus with 136 samples.

Results

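The interferon response gene families were followed here through every library of a study of NF-kB p50 and the nuclear IkB proteins in mouse macrophages. Members were all genes of the deposited table whose symbol begins as those of the Ifit, Ifi, Isg, Oas, Mx, Gbp, Iigp, Irgm, Irf, Stat and Parp families do, with Ifih1, Usp18, Rsad2, Cmpk2 and Ddx58. The rule found 57 members among 15196 genes, and 50 of them reached 1 RPKM (reads per kilobase of gene, scaled to the depth of the library) in at least 1 of 52 wild-type columns. The 7 that did not included Oas1d, Gbp10, Oas1f, Ifi44l, Ifi27l2b and Gbp2b. Of the 7, Gbp2b came nearest, with a highest value of 0.147 RPKM, and Gbp8 lay just inside at 1.03 RPKM. The Ifi prefix also takes in Ifitm genes, and the Irf prefix takes in Irf2bp1, Irf2bp2 and Irf2bpl, which encode partners of IRF2 and not interferon regulatory factors. Ifih1, Irf1 and Irf7 were not analysed here.

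Macrophages sense lipid A, the active part of bacterial endotoxin, through TLR4, which reaches NF-kB and MAP kinases by the adaptor MyD88 and the kinase TBK1 and the factor IRF3 by the adaptor TRIF. IRF3 and NF-kB together switch on Ifnb1, and the secreted interferon beta then acts through its receptor on JAK kinases and on a complex that holds STAT2 and IRF9 and binds the interferon-stimulated response element, or ISRE, of antiviral genes. Some members are direct targets of IRF3 or NF-kB as well, so that a family can hold genes that rise before interferon has been made and genes that rise after it. Nfkb1 encodes p105 and its product p50, which has no activation domain of its own. Nfkbiz, Bcl3 and Nfkbid encode the nuclear IkB proteins IkBz, Bcl3 and IkBNS, which bind p50.

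Bone marrow from wild-type mice (C57/B16 in the labels) or from knockout mice was grown into macrophages with M-CSF. Chromatin-associated RNA, mostly transcripts still being made, was sequenced at 0, 0.5, 1, 2 and 6 h of lipid A in 4 knockout series, each with its own wild type: Nfkb1-/- and Nfkbid-/- with 3 replicates of each genotype and time (30 libraries each), Nfkbiz-/- and Bcl3-/- with 2 (20 libraries each). Chromatin RNA was also sequenced in wild-type cells pretreated with DMSO or an ERK inhibitor and given lipid A for 0, 15, 30 or 60 min (8 libraries), and in wild-type cells given TNFa for 0, 0.5, 1, 2 or 6 h (5 libraries). Whole-cell RNA was sequenced in wild-type cells given lipid A or TNFa for the same times with a shared 0 h library (9 libraries, called the mRNA series). It was also sequenced in J2 macrophages at 0 and 2 h of lipid A (8 libraries: wild type and Nfkb1-/- with 1 library a time, and Nfkb1-/-,Nfkb2-/- with 2), and in control or IkBz-overexpressing wild-type cells at 0 h or after 2 h of TNFa or lipid A (6 libraries). The labels do not say what J2 stands for, how IkBz was expressed or which ERK inhibitor was used, and they do not say whether replicates came from separate animals or cultures. The p-values therefore measure the spread between these libraries, which may be technical.

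Depth, recovered from the steps between low values, was 7.86 to 45.3 M reads in the 113 chromatin libraries (median 28.8) and was lowest in replicate 1 of the Nfkb1 series, at 7.86 to 16.2 M. The depth of the whole-cell libraries is unknown. The 4 macrophage markers in the table reached 1 RPKM in every series. Replicate 1 of both genotypes of the Nfkbid series stood apart from the other replicates of that series: the sum of its values was 52478 to 66008 RPKM, where the others had 20385 to 39539 RPKM. It held the lowest sums of 3 nuclear RNA markers (23.7 RPKM in wild type, 34.0 in knockout) and the highest of 5 neutrophil and precursor markers (22.0 and 39.0 RPKM). Among chromatin series the Nfkbid series also held the highest sums of the 4 macrophage markers, 1234 (wild type) and 3180 RPKM (knockout). The other chromatin series reached 159 RPKM at most, and the mRNA series held 4995 to 8952 RPKM. In the Nfkb1 series the values of replicate 1 summed to 28516 to 68328 RPKM, where replicates 2 and 3 reached 21205 and 35179 RPKM at most. The 3 nuclear RNA markers there summed to 31208 (wild type) and 51413 RPKM (knockout) at most. The part of these in the results was not tested, and the counts that rest on replicate 1 of the Nfkbid series are given with and without it. Values on the targeted genes, counted over the whole gene span, do not test the deleted part. Nfkb1 was at 0.703 to 21.3 RPKM in the 15 libraries labelled Nfkb1-/- and at 1.33 to 24 RPKM in the 15 wild-type ones, and Bcl3 was higher in the libraries labelled Bcl3-/- (median 17.5 RPKM) than in their wild type (median 9.07 RPKM). Nfkbiz, Nfkbid and Nfkb2 were not analysed here. Genotypes are named here as labelled.

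The promoters of 5 members are shown because these genes mark the points on which the results turn: Gbp5, Rsad2, Ifit1 and Isg15 rose within 0.5 h of lipid A, and Ifitm2 was the member that was lower without Nfkbiz. Each is the 250 bases before the transcription start, from RefSeq on GRCm38.p6 (the deposited table uses mm9), 5′ to 3′ on the gene's strand. Capitals mark matches to the ISRE core (GAAA, any 2 bases, GAAA), to the STAT site TTCNNNGAA (the GAS element) or to the NF-kB consensus, on either strand. The NF-kB match of Gbp5 is GGAAATTCCC.
Gbp5 (chr3:142496684-142496933, plus strand): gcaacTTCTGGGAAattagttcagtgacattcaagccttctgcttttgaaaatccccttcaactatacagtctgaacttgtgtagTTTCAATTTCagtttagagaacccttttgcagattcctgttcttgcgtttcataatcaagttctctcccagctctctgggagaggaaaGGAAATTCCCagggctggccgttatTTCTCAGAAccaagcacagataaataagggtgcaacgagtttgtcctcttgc
Rsad2 (chr12:26456453-26456702, minus strand): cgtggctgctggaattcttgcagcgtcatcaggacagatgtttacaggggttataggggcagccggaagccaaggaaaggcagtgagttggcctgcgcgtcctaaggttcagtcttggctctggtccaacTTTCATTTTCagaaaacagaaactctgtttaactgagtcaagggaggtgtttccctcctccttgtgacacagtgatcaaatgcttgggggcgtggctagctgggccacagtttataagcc
Ifit1 (chr19:34640639-34640888, plus strand): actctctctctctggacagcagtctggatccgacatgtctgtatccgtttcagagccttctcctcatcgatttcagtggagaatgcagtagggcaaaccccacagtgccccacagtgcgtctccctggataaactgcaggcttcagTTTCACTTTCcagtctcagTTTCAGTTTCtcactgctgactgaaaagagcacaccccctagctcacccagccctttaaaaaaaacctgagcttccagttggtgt
Isg15 (chr4:156200819-156201068, minus strand): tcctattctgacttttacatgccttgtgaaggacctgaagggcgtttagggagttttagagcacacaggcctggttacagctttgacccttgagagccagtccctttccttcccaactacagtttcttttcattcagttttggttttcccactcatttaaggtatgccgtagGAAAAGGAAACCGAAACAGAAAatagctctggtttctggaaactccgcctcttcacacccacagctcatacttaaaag
Ifitm2 (chr7:140955962-140956211, minus strand): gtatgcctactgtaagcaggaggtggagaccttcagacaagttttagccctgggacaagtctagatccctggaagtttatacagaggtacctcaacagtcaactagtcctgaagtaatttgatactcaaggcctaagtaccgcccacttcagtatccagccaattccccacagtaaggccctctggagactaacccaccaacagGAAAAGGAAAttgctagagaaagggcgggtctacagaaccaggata

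In these windows Gbp5 held 1 ISRE match, 2 GAS matches and the NF-kB match. Ifit1 held 2 ISRE matches at -104 and -85 from the start, Isg15 held 3 in a row that share their ends, from -78 to -57, and Rsad2 and Ifitm2 held 1 each. RefSeq promoters of 250 bases before and 50 after the start were found for 43 of the 57 members. An ISRE match lay in 21 of the 43 (48.8%), against 3.59% of the 11293 promoters of the table's genes. Among the members that rose with lipid A (next paragraph) it was 17 of 26 (65.4%), among them Gbp2, Ifit3, Irgm2, Oas3, Stat2 and Ddx58, and among tested members that did not rise it was 3 of 13 (23.1%), Ifitm3, Oas1c and Parp4. Of the 17, Gbp2, Gbp5, Ifi205, Ifi208, Ifi214, Ifit3 and Ifit3b were tested only through stimulated libraries, so they give no support to this contrast. A GAS match lay in 8 of 43 (18.6%) against 8.46%, and an NF-kB match in 2 of 43 (4.65%), Gbp5 and Ifi30, against 4.67%. A match is a string of letters and not a shown binding site.

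Wild-type macrophages raised most of the members tested on chromatin within 2 h of lipid A. Of the 48 members tested, 34 rose at 1 or more times, where 13.3% of 5685 genes did, and 5 fell, where 30.6% of genes did (limma on 50 wild-type libraries, 10 a time, series included in the model, adjusted p under 0.05 and at least 2-fold against 0 h). Of these 48, 37 had reached 1 RPKM in 3 or more of the 10 libraries at 0 h, and 24 of them rose (11.0% of genes with such values at 0 h). The other 11 passed the filter on low values only through stimulated libraries, so the 10 of them that rose, among them every Gbp member that rose, give no support to the count. At 0.5, 1, 2 and 6 h the members that rose, counted over all 48, numbered 5, 9, 31 and 31, against 4.75%, 5.36%, 8.23% and 7.58% of all genes. The median member stood at -0.20, 0.23, 1.64 and 1.46 on the log2(RPKM + 0.5) scale at these times, and the median gene at -0.47, -0.39, -0.40 and -0.35. The added 0.5 makes a difference smaller than the ratio of the values where a group lies under about 1 RPKM. With each library centred on its median gene, which brought the all-gene medians to between 0.05 and 0.10, 9, 14, 37 and 35 members rose (9.29%, 10.3%, 13.3% and 11.6% of all genes) and 0, 1, 2 and 2 fell (2.08%, 4.01%, 6.65% and 5.59%), where without centring 2, 3, 3 and 3 members fell (14.0%, 15.8%, 17.2% and 13.7%). Without replicate 1 of the Nfkbid series 5, 9, 32 and 31 of 46 members rose (310, 329, 495 and 446 of 5104 genes). In the same fit 4, 3, 5 and 2 members fell (1052, 1053, 1069 and 781 genes), and the number that fell at some time went from 5 to 9.

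**Figure D1:**
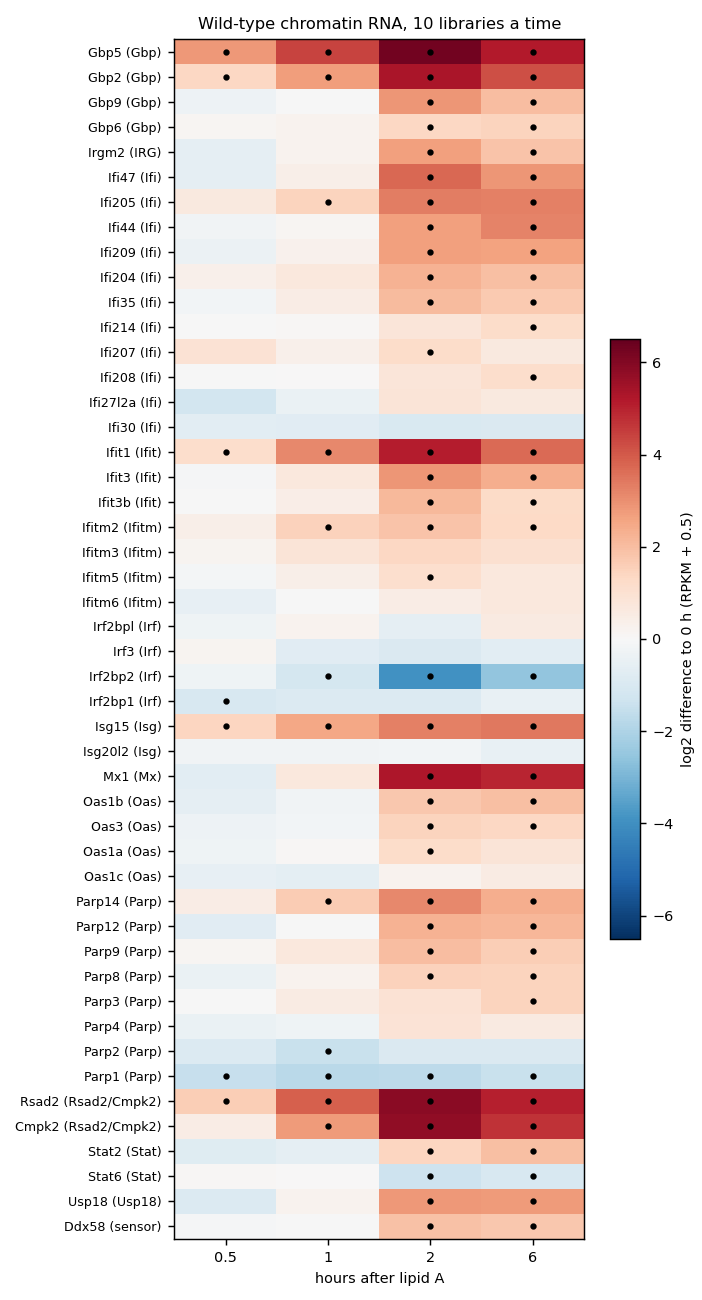
Log2 difference to 0 h (RPKM + 0.5) of the 48 tested members in wild-type chromatin RNA at 0.5, 1, 2 and 6 h of lipid A, fitted over 10 libraries a time and grouped by family. A black point marks a difference with a limma adjusted p under 0.05 and at least 2-fold: 5 members are marked as higher at 0.5 h and 31 at 2 h, and blue cells marked at 2 h are Irf2bp2, Parp1 and Stat6.

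The guanylate-binding proteins Gbp5 and Gbp2, GTPases that attack the membranes around intracellular microbes, were among the first members to rise. Gbp5 (chromosome 3, 142159897 to 142185308 on mm9, as for the positions below) ranged from 0.157 to 1.02 RPKM at 0 h (median 0.496), and after 0.5, 1 and 2 h of lipid A from 1.96 to 16.9 (median 7.87), from 10.2 to 71.9 (median 17.3) and from 45.1 to 100 (median 83.1). No 0.5 h library overlapped the 0 h libraries, and the log2 difference was 2.84 at 0.5 h and 6.25 ± 0.31 (standard error, 10 libraries a time, limma adjusted p = 1.36e-21) at 2 h. Gbp2 went from a median of 0.413 RPKM (0.0629 to 5.08) at 0 h to 43.2 RPKM (17 to 64.7) at 2 h, a log2 difference of 5.29 ± 0.38 with no overlap. Both members passed the filter on low values only through stimulated libraries, as Gbp9 and Gbp6 did, so the filter favoured these differences to 0 h. Both were lower at 6 h than at 2 h, by 1.08 (Gbp5) and 1.09 (Gbp2) on the log2 scale. In all 4 members were lower at 6 h than at 2 h, with Cmpk2 and Ifit1 (2.25% of genes), and 2 were higher, Irf2bp2 and Irf2bpl (3.22%). Gbp9 and Gbp6 were called from 2 h on. Gbp6 stood at 0.106 RPKM at most at 0 h and at 0.172 to 2.04 RPKM at 2 h. Of the other 3 of the 7 Gbp members, Gbp8 was too low to be tested, with a median of 0.187 RPKM at 0 h and 0.210 RPKM at 2 h, and Gbp10 and Gbp2b stayed under 1 RPKM. Irgm2, a related immunity GTPase, rose by 2.67 ± 0.39 at 2 h.

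Rsad2, whose enzyme viperin makes a chain-terminating nucleotide, and Cmpk2, its neighbour on chromosome 12 and a mitochondrial nucleotide kinase, rose together. Rsad2 (chromosome 12, 27127607 to 27141317) stood at 0.907 to 19.0 RPKM at 0 h (median 6.45) and at 171 to 664 RPKM at 2 h (median 346), and Cmpk2 at 0.568 to 16.2 RPKM (median 3.98) and 123 to 314 RPKM (median 223). The log2 differences at 2 h were 5.84 ± 0.38 and 5.76 ± 0.39. Rsad2 had already risen at 0.5 h (1.61) and Cmpk2 at 1 h (2.76). Mx1, a dynamin-like GTPase that traps viral nucleocapsids, did not pass the test at 0.5 or 1 h (-0.68 and 0.70) and then rose by 5.27 ± 0.49 at 2 h, from a median of 7.36 RPKM (1.06 to 13.9) at 0 h to 295 RPKM (99.0 to 399). All 10 libraries at 2 h lay above all 10 at 0 h for these 3 members.

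Ifit1, which binds viral RNA that lacks the host's cap methylation, ranged from 0.191 to 12.1 RPKM at 0 h (median 1.5) and from 33.2 to 260 RPKM at 2 h (median 65.9). It rose by 1.16, 3.13 and 5.10 ± 0.38 at 0.5, 1 and 2 h and was lower by 1.44 at 6 h than at 2 h (limma adjusted p under 0.05). Ifit3 and Ifit3b rose from 2 h, by 2.85 ± 0.39 and 2.11 ± 0.26, and both passed the filter only through stimulated libraries. Isg15, a ubiquitin-like protein that is conjugated to others, rose at every time and by 3.40 ± 0.58 at 6 h, when 9 wild-type libraries lay between 8.76 and 19.8 RPKM and replicate 1 of the Nfkbid series at 754 RPKM. Usp18, the protease that removes Isg15 and dampens the interferon receptor, rose by 2.84 ± 0.32 at 2 h, from a median of 3.41 RPKM (0.459 to 5.02) to 23.3 RPKM (15.3 to 31.0), with no overlap.

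**Figure D2:**
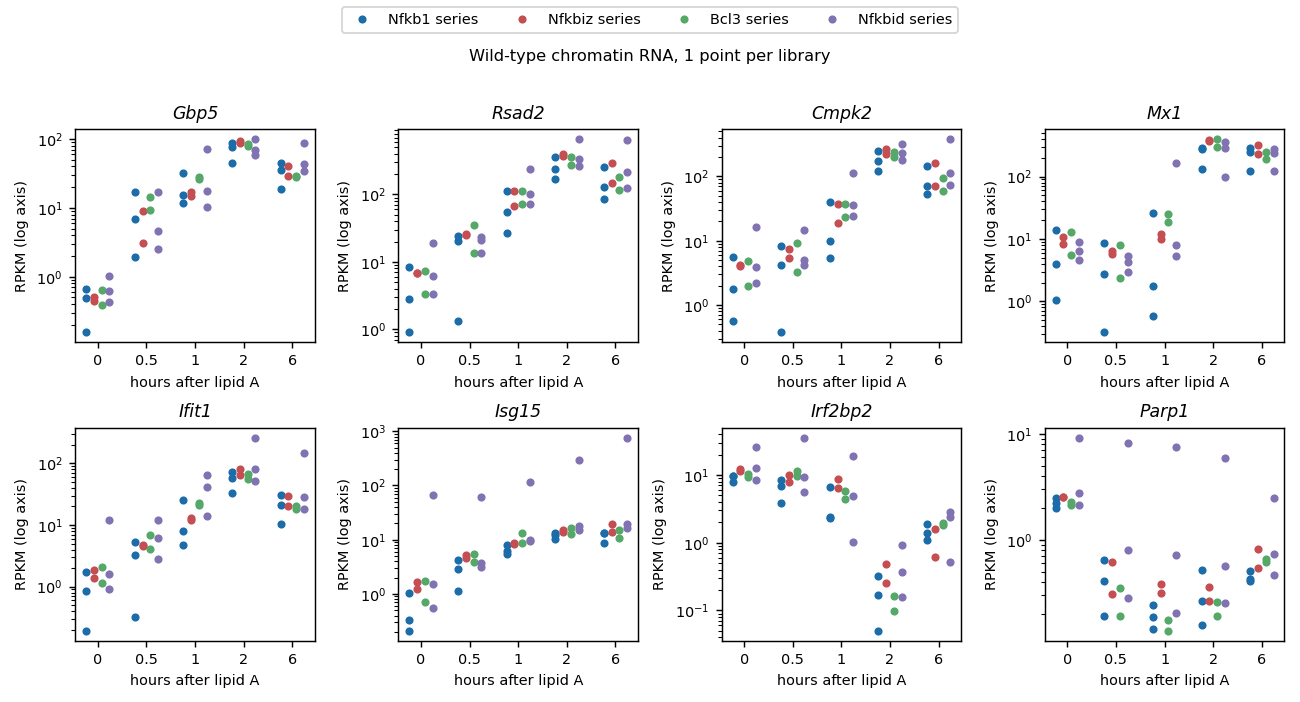
RPKM (log axis) of 8 members in each wild-type chromatin library at 0, 0.5, 1, 2 and 6 h of lipid A, 1 point per library, coloured by knockout series. Gbp5 lies above all 0 h libraries from 0.5 h on and Mx1 only at 2 and 6 h, Irf2bp2 is lowest at 2 h, and for Isg15 and Parp1 replicate 1 of the Nfkbid series lies far above the other points.

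Of the 13 Ifi members 11 were tested, and 7 rose at 2 h: Ifi47, an immunity GTPase, by 3.75 ± 0.43, Ifi205 by 3.34 ± 0.24, and Ifi44, Ifi209, Ifi204, Ifi35 and Ifi207 by 1.18 to 2.68. Ifi208 and Ifi214, of the same cluster of nucleic acid-binding p200 proteins as Ifi204 and Ifi205, were past 2-fold at 6 h (1.13 and 1.19) and short of it at 2 h (0.80 and 0.79). Ifi208 stayed near the floor at 6 h in wild type of the Bcl3 series (see Other observations), so its rise was not shared by all series. Ifi208 and Ifi214 passed the filter only through stimulated libraries, as Ifi205 and Ifi44 did. The test of 6 h against 2 h gave no call for Ifi208 or Ifi214 (0.33 and 0.40). Ifi30, a lysosomal thiol reductase, and Ifi27l2a did not pass the test at any time. Ifi44 was highest at 6 h, with 3.33 to 20.5 RPKM against 0.0306 to 1.87 RPKM at 0 h. The Oas family includes enzymes that make the 2-5A messenger of RNase L. Oas1b, Oas3 and Oas1a rose at 2 h by 1.77, 1.47 and 1.18, and Oas1c did not pass the test in that direction. Oas1a stayed at the floor in every wild-type library of the Nfkbiz series (see Other observations), so its rise does not hold for that series.

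Of the interferon-induced transmembrane genes, a family known for blocking viral entry, Ifitm2 and Ifitm5 passed the test. Ifitm2 (chromosome 7, 148140737 to 148141860) rose from 1 h: its median was 1.37 RPKM (0.723 to 14.0) at 0 h, 6.82 RPKM (1.17 to 16.4) at 1 h and 7.15 RPKM (3.14 to 18.2) at 2 h, and the log2 differences were 1.51 ± 0.35 and 1.84 ± 0.35. Its ranges at 0 h and 2 h overlapped only through replicate 1 of the Nfkbid series, which held 14.0 RPKM at 0 h. Ifitm5 rose by 1.08 at 2 h. Ifitm3 differed by 1.36 ± 0.72 at 2 h and Ifitm6 by 0.49, neither past the test.

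Among the Parp members, ADP-ribosyltransferases, the macroPARP Parp14 rose first, by 1.63 at 1 h and 3.10 ± 0.27 at 2 h (median 10.1 to 90.3 RPKM), and Parp9, Parp12 and Parp8 rose at 2 h and Parp3 at 6 h. Parp9 shares part of its span with Dtx3l, so its reads may include that gene's. Parp1, an enzyme of DNA repair, fell at all 4 times, by 1.51, 1.73, 1.70 and 1.44, from a median of 2.36 RPKM (2.00 to 9.16) at 0 h to 0.222 RPKM (0.138 to 7.55) at 1 h. Parp2 fell by 1.44 at 1 h. Replicate 1 of the Nfkbid series was the highest library for both at 1 h, at 7.55 RPKM (Parp1) and 3.09 RPKM (Parp2), where the other 9 libraries reached 0.721 and 0.763 RPKM at most.

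No detected Irf member rose. Irf3, the factor that acts just below TRIF, stood at a median of 4.69 RPKM (3.03 to 8.91) at 0 h and 1.96 RPKM (0.962 to 7.33) at 2 h, a log2 difference of -0.95 that fell short of 2-fold. Irf2bp2 fell by 1.13 at 1 h, by 3.92 ± 0.30 at 2 h (limma adjusted p = 2.23e-15) and by 2.55 at 6 h: it was at 7.96 to 26.1 RPKM at 0 h (median 10) and at 0.0499 to 0.925 RPKM at 2 h (median 0.213), and no 2 h library reached any 0 h library. It was higher again at 6 h than at 2 h, by 1.37. Irf2bp1 fell by 1.05 at 0.5 h, and Irf2bpl did not pass the test against 0 h. Of the signal transducers, Stat2 rose by 1.40 ± 0.24 at 2 h and 1.97 ± 0.24 at 6 h (median 12.3, 29.9 and 44.2 RPKM at 0, 2 and 6 h), and Stat6, which carries interleukin 4 signals, fell by 1.35 ± 0.29 at 2 h and 1.02 ± 0.29 at 6 h (median 6.81, 2.24 and 3.52 RPKM). Ddx58, the RNA sensor RIG-I, rose by 1.92 ± 0.26 at 2 h, from 3.45 to 14.5 RPKM in the median library.

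Ifnb1, the ligand itself, is no member by its symbol. In wild-type chromatin RNA it rose by 2.40, 4.04 and 1.73 on the log2 scale at 0.5, 1 and 2 h, with its largest difference at 1 h. Of the 62 genes listed for the ligand, receptors, kinases, inhibitors, adaptors and other targets of the pathway, 38 were in the table and 37 were tested. At some time 30 rose (13.3% of all genes), among them the feedback inhibitor Socs3 (4.69 to 5.76), and 4 fell (30.6%). How many of the 30 were tested only through stimulated libraries was not counted.

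To ask what p50 contributes, Nfkb1-/- macrophages were set against their wild type at each time (4523 genes, 45 members). Stat6 (chromosome 10, 127080041 to 127098043) was the only member that differed past the test: at 1 h it stood at 5.55, 6.70 and 7.36 RPKM in wild type and at 1.51, 2.42 and 2.61 RPKM in Nfkb1-/- (log2 difference -1.41 ± 0.25, limma adjusted p = 0.00212). The genotypes did not overlap at 1 h. They did at 0 h (6.25, 6.55 and 6.08 against 3.87, 6.55 and 7.14 RPKM) and at 2 h (2.91, 1.80 and 2.06 against 1.99, 1.73 and 1.75 RPKM). Over all genes 0.906% were lower in this comparison after stimulation and 0.133% higher. The Stat6 call was lost without wild-type replicate 3 (adjusted p = 0.0819) and with each time fitted alone (adjusted p = 0.567). No member's induction, the change from 0 h, differed between genotypes past the test (0.199% of genes had a weaker induction and 0.0% a stronger one), and 2 had a weaker one at 1 h at an unadjusted p under 0.05.

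Libraries with the same replicate number deviated together in this series, and with the number as a block 4 members were lower in Nfkb1-/- (2.03% of genes) and 0 higher (0.663%). The additions were Ifitm genes. Ifitm2 stood at 4.64, 9.33 and 6.80 RPKM in wild type and at 0.453, 3.52 and 2.78 RPKM in Nfkb1-/- at 2 h, in replicates 1, 2 and 3. It was lower in 3 of 3 pairs, by 1.62 on the log2 scale (limma adjusted p = 0.0048 with the block, 0.277 without it). The pairs showed the same at 1 h (1.17, 6.71 and 3.20 against 0.381, 2.04 and 0.979 RPKM, adjusted p = 0.0326 with the block and 0.616 without) and at 6 h (2.91, 2.89 and 2.87 against 0.407, 1.24 and 0.991 RPKM, 0.0206 and 0.489). At 2 and 6 h the genotypes did not overlap. Ifitm5 at 2 h (1.55, 4.16 and 3.88 against 0.297, 1.84 and 2.20 RPKM) had a blocked adjusted p of 0.0171, and Ifitm6 at 6 h (0.684, 1.69 and 3.18 against 0.423, 0.349 and 0.995 RPKM) one of 0.0329.

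With a separate block for each time, 4 members were also higher in Nfkb1-/- (1.3% of genes, and 2.74% lower). At 1 h these were Cmpk2 (5.42, 40.2 and 9.84 RPKM in wild type, 16.9, 120 and 36.3 RPKM in Nfkb1-/-, limma adjusted p = 0.00900), Rsad2 (27.2, 114 and 54.3 against 72.0, 252 and 178 RPKM, 0.0348) and Ifit3 (0.172, 2.16 and 0.213 against 0.879, 7.12 and 1.07 RPKM, 0.00991). Each was higher in 3 of 3 pairs, by 1.65, 1.41 and 1.23 on the log2 scale, while the genotypes overlapped because replicate 2 was highest in both. Irf2bp2 at 6 h was the other, at 1.92, 1.10 and 1.39 RPKM in wild type and 4.29, 3.10 and 3.51 RPKM in Nfkb1-/-, without overlap. The median member lay at 0.46 at 1 h, with 35 of 45 above 0, and the median gene at -0.01. Without Nfkb1-/- replicate 2 it lay at -0.04, with 20 of 43 above 0.

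The ligand was read at 1 h beside these genes, and a link between them was not tested. Cmpk2, Rsad2 and Ifit3 were highest in replicate 2 of both genotypes, and Ifnb1 was lowest there. Ifnb1 at 1 h stood at 9.35, 2.45 and 16.8 RPKM in wild type and at 28.9, 13.7 and 63.1 RPKM in Nfkb1-/-, higher in 3 of 3 pairs, by 1.91 ± 0.60 on the log2 scale. Its limma adjusted p was 0.297 without a block, 0.0720 with the block and 1.05e-05 with a block at each time. The same test gave no call for the other pathway genes without a block (0 lower and 0 higher).

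**Figure D3:**
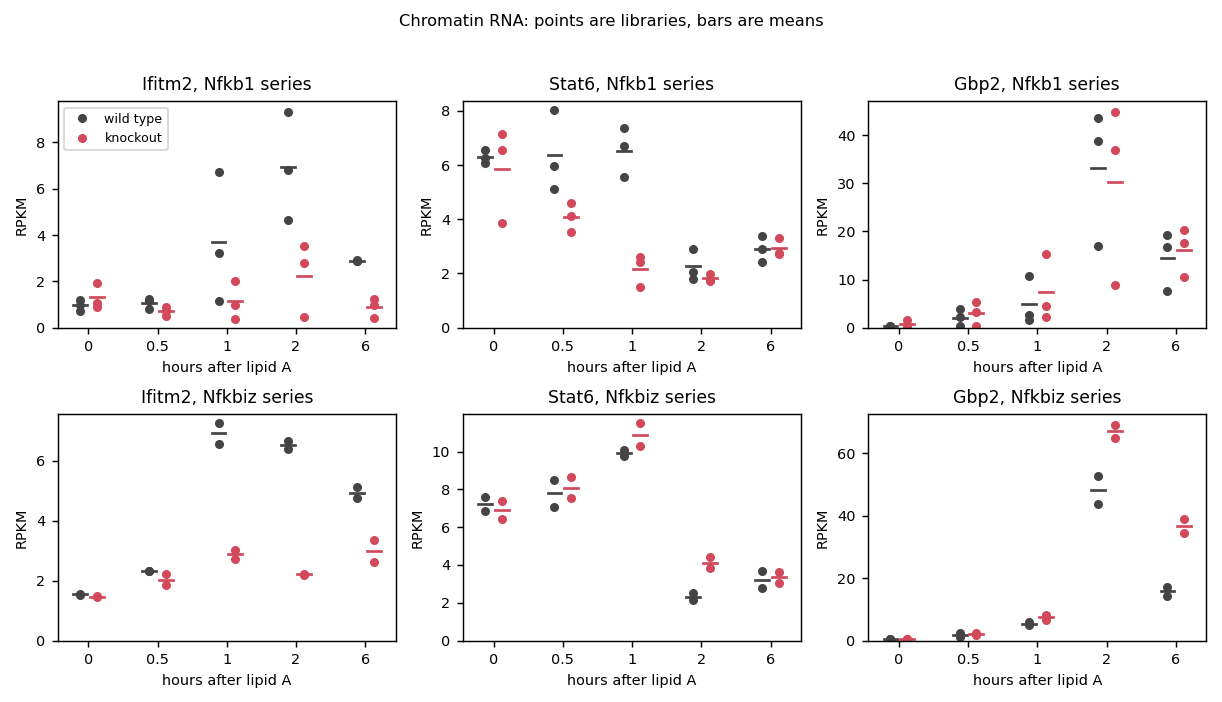
RPKM of Ifitm2, Stat6 and Gbp2 in chromatin RNA of the Nfkb1 series (top, 3 replicates) and the Nfkbiz series (bottom, 2 replicates) at 0, 0.5, 1, 2 and 6 h of lipid A: points are libraries and bars are means. Ifitm2 is lower in both knockouts at 2 and 6 h with no overlap, Stat6 at 1 h is lower in Nfkb1-/- (2.61 RPKM at most against 5.55 at least), and Gbp2 at 6 h is higher in Nfkbiz-/- (34.6 and 39.1 against 14.3 and 17.2 RPKM).

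IkBz is a nuclear IkB whose own gene is switched on by lipid A, and the study asked which genes need it. In Nfkbiz-/- macrophages (4885 genes, 46 members) 1 member was lower and 1 higher at some stimulated time, where 4.26% of genes were lower and 2.01% higher. Ifitm2 started level at 0 h (1.56 and 1.53 RPKM in wild type, 1.45 and 1.49 RPKM in Nfkbiz-/-). It reached 7.27 and 6.57 RPKM in wild type at 1 h and only 3.04 and 2.73 RPKM in Nfkbiz-/- (log2 difference -1.13 ± 0.13, limma adjusted p = 0.00077). At 2 h the values were 6.41 and 6.65 against 2.20 and 2.23 RPKM (-1.37 ± 0.13, limma adjusted p = 6.27e-05). At 6 h, with 5.12 and 4.77 against 3.35 and 2.64 RPKM, the difference was -0.65 and under 2-fold. The groups did not overlap at 1, 2 or 6 h. The change from 0 h was smaller in Nfkbiz-/- by 1.08 at 1 h (adjusted p = 0.0369) and by 1.32 at 2 h (adjusted p = 0.00386), the only member with such a difference, where 2.07% of genes had a weaker induction and 1.15% a stronger one. That call was lost with any 1 replicate left out. No member had a stronger induction without a block, and with the replicate block 2 of 46 did at 6 h, where 1.8% of genes did: Gbp2 by 1.15 on the log2 scale (limma adjusted p = 0.0239), and Irf2bp2 by 1.14 (limma adjusted p = 0.0255). Irf2bp2 was lower at 6 h than at 0 h in both genotypes, from 12.4 and 11.5 to 1.61 and 0.608 RPKM in wild type and from 9.86 and 10.7 to 2.82 and 2.03 RPKM in Nfkbiz-/-. The lower level at 2 h held in all 4 fits that leave out a replicate, and at 1 h it was lost without replicate 1 of either genotype.

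Gbp2 was the member that was higher, at 6 h: 14.3 and 17.2 RPKM in wild type against 34.6 and 39.1 RPKM in Nfkbiz-/- (1.20 ± 0.24, limma adjusted p = 0.00472, lost in 3 of the 4 fits that leave out a replicate). At 2 h it stood at 52.7 and 43.6 against 69.1 and 65.1 RPKM, not past the test. With libraries centred on their median gene, 3 members were higher at 6 h, Gbp2, Ifit3b and Irf2bp2 (3.38% of genes), and Ifitm2 was lower at 1 and 2 h (0.512% and 1.11%). Ifitm5, next to Ifitm2 in the blocked Nfkb1 result, was at 3.74 and 3.73 against 2.00 and 1.86 RPKM at 2 h, and its adjusted p was 0.0586. Stat6 at 1 h was level here (9.74 and 10.1 against 10.3 and 11.5 RPKM). The ligand was level too, with a log2 difference of -0.21 for Ifnb1 at 1 h (adjusted p = 0.863). Of the other pathway genes, Ifnar2 at 6 h (-1.10, adjusted p = 0.00803) and the phosphatase Ptpn6 at 1 h (-1.28, adjusted p = 0.00246) were lower, and the chemokines Cxcl9 and Cxcl11 at 6 h were higher.

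Whether the Nfkb1 and Nfkbiz effects differed was tested directly in 1 fit of 100 libraries. No member passed (5991 genes, 48 members, 0 also at an unadjusted p under 0.05, where 0.1% of genes passed at some time). For Ifitm2 the Nfkb1 effect minus the Nfkbiz effect was -0.12 at 1 h and -0.25 at 2 h. For Stat6 at 1 h it was -1.54 ± 0.98, and its limma adjusted p was 1 without and 0.0535 with the replicate block. The spread in this fit comes from all 100 libraries. They include replicate 1 of the Nfkbid series, where wild-type Stat6 at 1 h stood at 27.8 RPKM and the next library at 10.1. The test therefore cannot decide whether the Stat6 effects of the 2 series differ.

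In Bcl3-/- (4740 genes, 47 members) and Nfkbid-/- macrophages (5367 genes, 48 members) limma called 0 members and 0.0% of all genes, and 0 members had an unadjusted p under 0.05. Without replicate 1 of both genotypes of the Nfkbid series the count was 0 as well. With the replicate block 0 members were called too, where at most 0.0422% of genes were at any time. At an unadjusted limma p under 0.05 the block gave 3 members lower in Bcl3-/- at 2 h and 1 lower in Nfkbid-/- at 0.5 h. Recovery of known changes was not simulated for these series, so a count of 0 does not show that no member differs. In Bcl3-/- at 2 h the median member was at -0.40, with 38 of 47 below 0, and the median gene at -0.16. The replicates differed: Rsad2 at 2 h stood at 270 and 361 RPKM in wild type and at 130 and 362 RPKM in Bcl3-/-, so that replicate 2 was level and replicate 1 was not. Without Bcl3-/- replicate 2, a comparison of 1 library a time with 2, 11 members were called lower at some time: 6 of 44 at 0.5 h, where 9.77% of genes were, and 8 of 44 at 2 h, where 4.09% were. In Nfkbid-/- the member medians lay between -0.10 and 0.06. Ifitm2 at 2 h overlapped in both series, with 8.64 and 7.49 against 12.6 and 7.39 RPKM for Bcl3 and 18.2, 8.84 and 3.14 against 52.5, 7.36 and 3.68 RPKM for Nfkbid.

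Because p52, from Nfkb2, could stand in for p50, J2 macrophages lacking both were compared with wild type and with Nfkb1-/- in whole-cell RNA (6436 genes, 46 members). In wild-type J2 cells 28 members were at least 2-fold higher at 2 h than at 0 h and 1 lower (5.52% and 3.78% of genes). At 2 h in the double knockout, 29 members were at least 2-fold below wild type and 0 at least 2-fold above, where 3.84% and 2.22% of genes were, and the median member stood at -1.38 against 0.03 for the median gene. Both double-knockout libraries lay below both the wild-type and the Nfkb1-/- library for 32 of 46 members, where 16.8% of genes did so. The 14 that did not included every Irf member tested, Stat6, Ifitm2, Ifi30 and 4 Parp members. No member passed limma's adjusted p (lowest 0.126, 0.0% of genes called), and 21 were at least 2-fold lower at an unadjusted p under 0.05 (2.19% of genes) and 0 higher (1.07%). A gene was tested if it reached 1 RPKM in 2 J2 libraries. A member could thus enter through the 2 h wild-type and Nfkb1-/- libraries alone, and could then hardly be higher in the double knockout. How many members did so was not counted, and they give no support to the 2 h counts here and below. Wild type and Nfkb1-/- have 1 library a time and are assumed to vary like the 2 double-knockout libraries. In such bulk RNA fewer responding cells and less RNA per cell cannot be told apart.

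Mx1 was at 56.9 RPKM in wild type, 58.1 in Nfkb1-/- and 0.25 and 0.847 RPKM in the double knockout at 2 h, a log2 difference of -5.83 ± 0.43 between double knockout and wild type. Rsad2 was at 617, 294 and then 6.87 and 41.4 RPKM, and Cmpk2 at 268, 171 and then 2.49 and 20.7 RPKM (-5.13 and -5.08). In each case both double-knockout libraries lay far below the Nfkb1-/- library as well. Usp18 was at 110, 52.7 and then 5.04 and 9.01 RPKM, Ifi44 at 11.4, 7.19 and then 0.0853 and 0.368 RPKM, and Ifit3 at 83.3, 39.7 and then 9.49 and 10.5 RPKM. Gbp5 was at 85.1, 111 and then 8.49 and 39.2 RPKM, Isg15 at 239, 227 and then 32.2 and 139 RPKM, and Ifit1 at 317, 185 and then 36.3 and 84.1 RPKM. The first double-knockout library was the lower one for all 9 of these members.

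Ifitm2 did not follow the other members in J2 cells: it was at 164 RPKM in wild type, 141 in Nfkb1-/- and 186 and 170 RPKM in the double knockout at 2 h. Its whole-cell RNA was as high before lipid A, with 167 RPKM in wild type at 0 h. Irf3 (22.2, 24.7 and then 26.2 and 24.6 RPKM), Stat6 (70.9, 60.2 and then 65.0 and 55.1 RPKM) and Ifi30 (130, 102 and then 151 and 202 RPKM) were also level or higher. Parp8 was low before stimulation too, at 1.20 RPKM in wild type, 2.85 in Nfkb1-/- and 0.0771 and 0.0433 RPKM in the double knockout at 0 h. Over all members the 0 h median was -0.18, with 8 at least 2-fold below wild type and 0 above (2.08% and 1.26% of genes). Against the Nfkb1-/- library the 2 h median of the double knockout was -1.0, with 22 members at least 2-fold lower and 0 higher (3.9% and 1.93% of genes). Nfkb1-/- against wild type at 2 h had a median of -0.23, with Rsad2, Usp18, Ifit3 and Ifit3b at least 2-fold lower (1.74% of genes) and Ifi27l2a higher (16.3 to 69.1 RPKM, 2.47%). These comparisons share libraries. Ifnb1 itself was at 4.79 RPKM in wild type, 5.38 in Nfkb1-/- and 5.11 and 12.9 RPKM in the double knockout at 2 h.

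**Figure D4:**
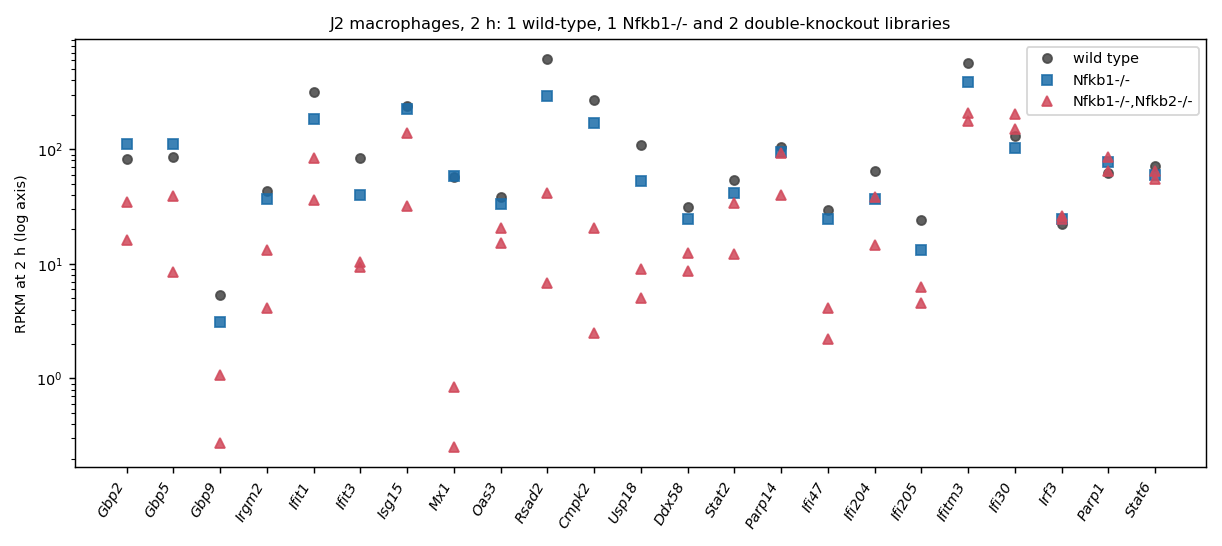
RPKM at 2 h (log axis) of 23 members in J2 macrophages: 1 wild-type library, 1 Nfkb1-/- library and 2 Nfkb1-/-,Nfkb2-/- libraries. Both double-knockout points of Mx1, Rsad2 and Cmpk2 lie far below the other 2, and Irf3, Stat6 and Parp1 lie together.

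The p105 precursor also stabilises the kinase TPL2, which acts upstream of ERK, and the study used an ERK inhibitor to ask about this role. With 1 library a condition there was no replicate check and no test. After 60 min of lipid A, 15 of 40 members were at least 2-fold higher with the inhibitor than with DMSO and 1 was lower, where 2.93% and 3.43% of 3409 genes were. The median member was at 0.85, with 30 of 40 above 0, and the median gene at -0.05. Rsad2 was at 20.2 RPKM with DMSO and 84.0 with the inhibitor, Cmpk2 at 7.57 and 32.3, Mx1 at 6.93 and 26.0, Ifit1 at 8.83 and 27.4, and Irgm2 at 2.07 and 7.15 RPKM (log2 ratios 2.03 to 1.58). These 5 had the highest ratios. The lowest were Irf2bp2 (2.24 to 0.787 RPKM, -1.09), Stat6 (3.94 to 1.97 RPKM, -0.85), Irf2bpl (-0.60), Parp8 (-0.40) and Parp4 (-0.20).

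The difference was small before 60 min. At 0 min no member was 2-fold apart (0.469% of genes higher, 0.704% lower). At 15 min Gbp5 alone was higher (0.741 to 2.08 RPKM, 0.675% of genes), and at 30 min Gbp5 (7.71 to 20.2 RPKM) and Ifit1 (1.25 to 3.46 RPKM) were (0.968% of genes). Ifnb1 was at 1.84 RPKM with DMSO and 4.44 with the inhibitor at 30 min, and at 2.38 and 6.88 RPKM at 60 min. Against their own 0 min library, 18 members were at least 2-fold higher at 60 min with DMSO (12.1% of genes) and 25 with the inhibitor (12.8%). A member low at 0 min could enter only through stimulated libraries. Such members were not counted, and they give no support to these numbers.

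TNFa activates NF-kB through its own receptors and not through TRIF, and the study used it to ask how IkBz is regulated selectively. In chromatin RNA 4, 1, 4 and 17 of 42 members were at least 2-fold above 0 h after 0.5, 1, 2 and 6 h of TNFa, against 7.54%, 2.05%, 4.19% and 5.51% of 4391 genes, and 0 were lower (3.99%, 1.32%, 1.43% and 1.96%). The early members were Gbp5 (log2 ratio 2.32 at 0.5 h), Ifi207 (1.68), Gbp2 (1.42) and Ifi204 (1.07). Gbp5 and Gbp2 lay under 1 RPKM at 0 h, so they entered only through stimulated libraries and give no support to these counts. Other members that entered in this way were not counted. Gbp5 stood at 0.116, 2.57, 0.800, 2.90 and 2.5 RPKM over 0, 0.5, 1, 2 and 6 h, low throughout beside the 45.1 RPKM or more of wild-type libraries at 2 h of lipid A, which come from other series. At 6 h the median member was at 0.82 and the median gene at 0.00. The highest ratios then were those of Gbp5 (2.29), Gbp2 (0.155 to 2.58 RPKM, 2.23), Mx1 (3.80 to 16.1 RPKM, 1.95), Rsad2 (1.97 to 8.73 RPKM, 1.90) and Ifit1 (0.772 to 4.06 RPKM, 1.84). The lowest were Parp1 (-0.43), Parp2, Irf2bpl, Irf2bp1 and Irf3 (-0.19 to -0.10). Ifnb1 stayed between 0.0607 and 0.166 RPKM in these 5 libraries.

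In whole-cell RNA, where transcripts also accumulate, the 2 stimuli could be set side by side against a shared 0 h library (9325 genes, 49 members). With lipid A 0, 7, 16 and 35 members were at least 2-fold higher at 0.5, 1, 2 and 6 h (2.57%, 4.18%, 5.68% and 8.04% of genes). With TNFa 1, 3, 3 and 28 were (2.38%, 2.57%, 2.71% and 5.64%). Gbp5 and Ifi205, under 1 RPKM at 0 h, entered only through stimulated libraries and give no support to these counts. Other members that entered in this way were not counted. At 6 h the member medians were 2.47 with lipid A and 1.38 with TNFa. The 5 highest ratios with lipid A at 6 h were these: Gbp5 went from 0.445 to 478 RPKM, Ifi205 from 0.238 to 259, Gbp2 from 3.09 to 556, Rsad2 from 7.26 to 1030 and Cmpk2 from 7.20 to 904 RPKM. With TNFa Gbp5 reached 197, Gbp2 225, Ifi205 24.1, Rsad2 219 and Mx1 55.1 RPKM. The courses differed between members. Gbp5 stood at 1.05, 27.0 and 108 RPKM after 0.5, 1 and 2 h of lipid A and at 1.64, 3.70 and 6.23 RPKM after the same times of TNFa. Mx1, at 1.69 RPKM at 0 h, had reached 53.5 RPKM after 2 h of lipid A and was at 1.44, 1.77 and 1.21 RPKM over the first 2 h of TNFa. At 2 h of TNFa only Gbp5, Gbp2 and Ifi205 (log2 ratios 2.83, 1.70 and 1.30) were at least 2-fold higher. The lowest ratios at 6 h of lipid A were those of Irf2bp2 (57.5 to 9.76 RPKM), Parp1 (32.9 to 7.25 RPKM), Ifi30, Stat6 (108 to 49.2 RPKM) and Parp2, each at least 2-fold lower (21.5% of genes). At 6 h of TNFa the lowest were Irf2bpl (11.9 to 2.36 RPKM, the 1 member 2-fold lower, 10.5% of genes), Parp1, Ifi214, Ifi30 and Irf2bp2 (-0.98 to -0.90). Many low genes share a fixed value between libraries of this series, as Ifi214 did at 0.773 RPKM in 5 of 9 libraries, so that its ratio cannot be read as a change. Genes at such a value may be among the 9325 and would then lower the shares of genes given here. Their number was not counted.

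Forced expression of IkBz was used to ask whether it restores its target genes under TNFa. Usp18 was the only member at least 2-fold higher with it in any of the 3 conditions (1 library each, 6510 genes, 49 members). After 2 h of lipid A 3 members were at least 2-fold lower (1.74% of genes) and 0 higher (1.95%). Ifitm6 was at 11.4 RPKM in control and 3.78 with IkBz and Ifi47 at 118 and 52.0 RPKM (log2 ratios -1.48 and -1.18), Gbp9 had a ratio of -1.21, and Gbp2, at 253 and 127 RPKM, lay just inside. The median member was at -0.54, with 37 of 49 below 0, and the median gene at 0.01. The highest ratios were those of Ifi214 (0.53), Irf2bp2, Irf2bpl, Irf2bp1 and Ifi44 (0.43 to 0.21). After 2 h of TNFa Ifitm6 (-1.85), Gbp2 (42.2 to 17.1 RPKM, -1.28) and Gbp9 (-1.08) were lower (1.61% of genes) and Usp18 (1.04) higher (2.38%), with a member median of -0.18. Ifitm6 and Usp18 were already 2-fold apart at 0 h (-1.35 and 1.08; 1.37% of genes lower and 2.57% higher). Ifnb1 after lipid A was at 21.0 RPKM with IkBz and 23.8 in control.

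Markers of another cell type moved with this comparison. The 5 neutrophil and precursor genes in the table summed to 129.6 to 193.8 RPKM in the 3 libraries with IkBz and 12.9 to 16.9 RPKM in control, all 5 reaching 1 RPKM in both, and the 4 macrophage markers summed to 11515 to 16848 RPKM and 6771 to 9328 RPKM. Their part in the differences was not tested. In control cells 2 h of TNFa alone left 5 members at least 2-fold above 0 h (4.06% of genes), Gbp5 (0.490 to 52.2 RPKM), Gbp2, Ifi205, Parp14 and Parp8. Gbp5 lay under 1 RPKM at 0 h, so it entered only through stimulated libraries and gives no support to this count. Other members that entered in this way were not counted.

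**Figure D5:**
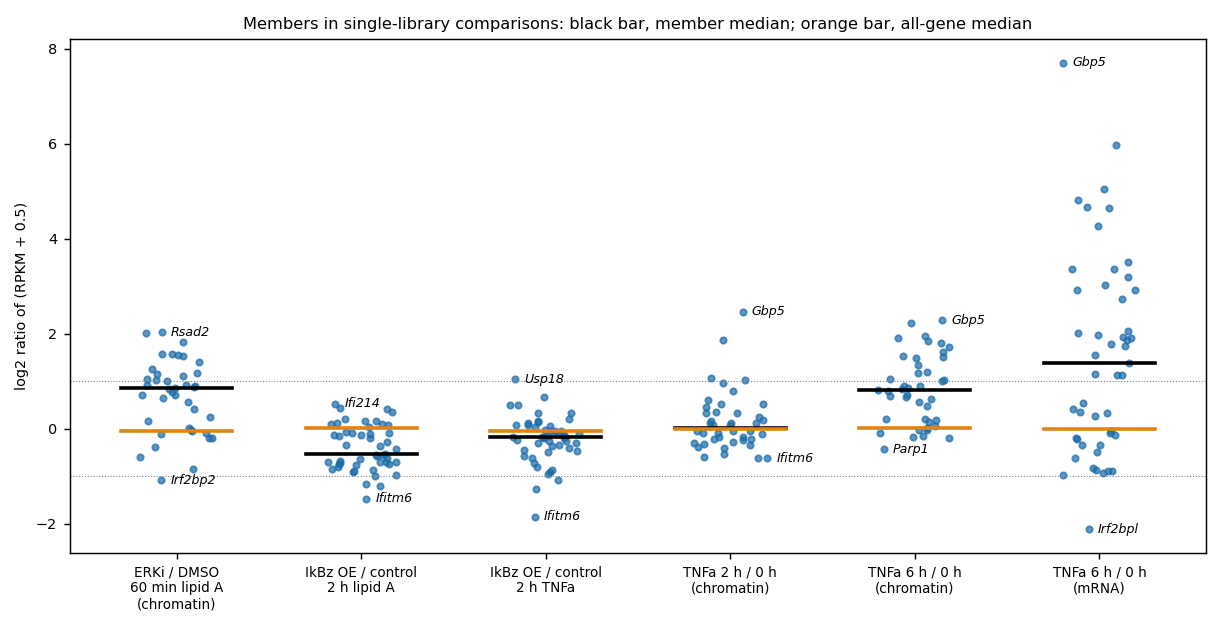
Log2 ratios of RPKM + 0.5 for members in 6 comparisons with 1 library a condition: each point is a member, the black bar is the member median and the orange bar the median of all genes tested. With the ERK inhibitor at 60 min of lipid A the member median is 0.85, with IkBz overexpression at 2 h of lipid A it is -0.54, and after 6 h of TNFa it is 0.82 in chromatin RNA and 1.38 in the mRNA series.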

How the data were processed

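The authors deposited 1 table of RPKM values for 15196 genes in 136 libraries, with gene positions on mm9. HISAT2, SAMtools and mm9 are named, with no versions, per the submitters' processing notes. How reads were counted is not given in the sources used here. In each chromatin library, values of up to 30 reads were whole multiples of 1 read over the whole gene span, to within 0.02 reads, for 97.4% to 100% of genes, and genes with 0 or 1 read share 1 value. Library totals and normalization cannot be checked further, and reads over genes that overlap cannot be assigned. The 23 whole-cell libraries were taken as such from their labelled molecule and the design, although the labels' extraction text describes chromatin RNA for them too.

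Values were analysed as log2(RPKM + 0.5) with limma 3.58.1 in R 4.3.3 (lmFit, eBayes with a trend), 1 mean per genotype and time. Genes tested reached 1 RPKM in as many libraries as the smallest group holds, or in 3 (wild type, joint fit of the knockout series) or 2 (J2). A member was called at an adjusted p (Benjamini and Hochberg over all genes tested, per contrast) under 0.05 where it also differed 2-fold or more, and the difference between the Nfkb1 and Nfkbiz effects at the adjusted p alone. Experiments with 1 library a condition were described as ratios without a test. The members, lists and tests were chosen with earlier results of these data known. Genes were named by rule: for wild type the 12 largest rises, every fall, all Irf and Stat members, Ddx58, Usp18, Rsad2 and Cmpk2, for knockouts every member called with or without the block, and for single libraries the 5 highest and 5 lowest ratios. Members named beyond this, and the Ifitm2 promoter, were chosen after their values were seen.

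Residuals of libraries with the same replicate number had correlations of 0.61 to 0.92 (Nfkb1), 0.45 to 0.73 (Nfkbiz), 0.27 to 0.76 (Bcl3) and 0.89 to 0.97 (Nfkbid). The labels do not say that the numbers pair genotypes, so the main knockout fits had no block. Pairs named above are libraries of the same number, and fits with a block are alternatives. Alternatives were a replicate block for the series or each time, pseudocounts of 0.1 and 1, no filter or one at 3 RPKM, centring on the median gene, 1 fit of the 4 series, each time alone, and fits without a replicate or series. Fits without 1 replicate number in both genotypes of the Nfkb1 series were chosen after seeing the data. On simulated data the limma adjusted p was under 0.05, with no limit on size, for 29.5% (Nfkb1), 74% (Nfkbiz) and 54.5% (wild type) of genes changed 2-fold. For genes changed 4-fold the shares were 76.5%, 93.5% and 90.5%. The simulated libraries varied independently, so these shares allow neither for the correlations above nor for the 2-fold limit of a call. Tables and plots were made with Python 3.11.15, pandas 2.3.3, numpy 2.4.6 and matplotlib 3.10.9. Some genes of these families are not reported here.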

Additional observations from a re-analysis of the deposited data

Results flagged for a closer look

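In 13 of 21 sets of 10 wild-type chromatin libraries checked, the highest library lay further from the next than a Dixon test allows (critical value 0.466), and in each it was replicate 1 of the Nfkbid series. Chance flags about 5% of such sets. Among members that rose with lipid A, this library held 664 RPKM of Rsad2 at 2 h where the next held 393, 260 RPKM of Ifit1 at 2 h (next 81.2), 58.1 RPKM of Ifit3 at 2 h (next 13.6) and 18.2 RPKM of Ifitm2 at 2 h (next 9.33). At 6 h it held 754 RPKM of Isg15 (next 19.8), 180 RPKM of Gbp2 (next 19.2) and 20.5 RPKM of Ifi44 (next 11.8). Among members that fell it was high as well, with 8.01 RPKM of Irf2bp1 at 0.5 h (next 0.731), 7.55 RPKM of Parp1 (next 0.721) and 3.09 RPKM of Parp2 (next 0.763) at 1 h, and 0.925 RPKM of Irf2bp2 at 2 h (next 0.481). Stat6 stood at 27.8 RPKM at 1 h (next 10.1) and 25.1 RPKM at 2 h (next 3.0) in it.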

How the results depend on the processing

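No named gene changed direction in the alternatives run, while the median member did: in Nfkb1-/- it went from 0.46 to -0.04 at 1 h without knockout replicate 2, and from 0.10 to -0.0019 at 6 h with median centring. Of the alternatives for single genes 380 kept the call, 19 lost it and 14 gained it, and of those for counts 191 stayed within 1.5 times and 38 did not; the cause of the latter was not tested. The members lower in wild type, 5, became 2 with median centring, 10 with a pseudocount of 0.1, and 9 without replicate 1 of the Nfkbid series or without that series. The count lower in Nfkb1-/-, 1, became 0 in 1 fit of the 4 series, with each time fitted alone, and without replicate 2 or 3 of both genotypes, and it ranged from 0 to 1 with 1 replicate left out, lost without wild-type replicate 3. With the replicate block, or the block at each time, it was 4, and the latter block also gave 4 higher, 3 with a weaker and 1 with a stronger induction. In Nfkbiz-/- the count lower, 1, was 0 in 1 fit of the 4 series and 2 with a pseudocount of 0.1. The count higher, 1, was 0 in that joint fit, 3 with median centring, 2 without a filter, 2 with a pseudocount of 0.1, and 0 to 1 with a replicate left out. The member called higher, Gbp2, was lost without either knockout replicate and without wild-type replicate 1, where Irf2bp2 was called in its place. Members with a weaker induction in Nfkbiz-/- numbered 0 with any replicate left out (0 to 0). Those with a stronger one, 0, numbered 1 with median centring, 1 with a pseudocount of 1 and 2 with either replicate block. Members lower in Bcl3-/- ranged from 0 to 11 with a replicate left out. With the ERK inhibitor the 1 lower member became 2 (pseudocount 0.1) or 0 (pseudocount 1, median centring). A pseudocount of 0.1 gave 2 members lower at 2 h of lipid A in the mRNA series, 5 lower with IkBz overexpression in lipid A and 3 higher with it in TNFa, and a pseudocount of 1 gave 0 of the last. The replicate block changed no other call of a named knockout result. Depth limits low members in chromatin RNA, since genes with 0 or 1 read share a value, and with 1 library a condition no error is known.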

Other observations

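Oas1a carried the value of 1 or 2 reads in all 10 wild-type libraries of the Nfkbiz series and in replicate 2 of Nfkbiz-/- at every time, while replicate 1 of Nfkbiz-/- held 135 to 469 reads, with the most at 2 h (1.45 RPKM). The 2 replicates labelled alike therefore stood apart at this gene before and after lipid A. Ifi208 varied between series in a like way: at 6 h it was at 2.43 and 3.45 RPKM in wild type of the Nfkbiz series and at 0.031 and 0.043 RPKM in wild type of the Bcl3 series. Within the Nfkbid series its 6 h wild-type values were 0.084, 1.80 and 0.022 RPKM in replicates 1, 2 and 3.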
